A study of Homo sapiens with 3 samples.

Results

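SR proteins, hnRNPs and the CLK kinases were examined as a group of RNA-binding splicing factors and the enzymes that switch them. Members were taken by gene symbol: every SRSF gene with a number, TRA2A and TRA2B, every symbol that opens with HNRNP, and CLK1 to CLK4. The rule used no measured value, although the members were chosen with earlier results of these data known. It found 44 of the 36601 genes in the count matrices, of which 14 were SR or TRA2 genes, 26 were HNRNP genes and 4 were CLK genes.

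The cells were OVCAR3, an established ovarian cancer line of the high-grade serous type. They were given the solvent DMSO, the RAC1 inhibitor NSC23766 (RAC1i) at 50 μM, or RAC1i with the EZH2 inhibitor GSK126 at 5 μM (Combo). All were collected after 48 h and profiled by single cell 3′ RNA-seq with unique molecular identifiers (UMIs), which count captured RNA molecules. Each condition was a single library, so no statistical test between conditions was possible, and every interval below is a 95% interval that covers counting error only. The treated cultures contained the DMSO that carried the drugs, and EZH2i alone was not analysed here.

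SR proteins bind short exonic sequences through an RNA recognition motif and recruit the spliceosome through a domain rich in arginine and serine. Many hnRNPs coat nascent RNA and often act against SR proteins at the same exon. The SRPK kinases phosphorylate SR proteins in the cytoplasm before their import, the CLK kinases phosphorylate them again in the nucleus, and many SR and hnRNP genes limit their own protein by splicing their RNA into forms that are destroyed by nonsense-mediated decay.

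After cells with few genes or much mitochondrial RNA were left out, 7531 DMSO, 10215 RAC1i and 8239 Combo cells remained, with 199063947 to 234969742 UMIs a library. The median cell held 26750, 20989 and 24953 UMIs in the same order, and the median mitochondrial share was 5.60%, 1.66% and 1.58%. Barcodes shared by a pair of libraries numbered 15 to 23. Of 8 markers of ovarian serous epithelium, 8, 8 and 7 reached 10 counts per 1000000 UMIs (CPM) in DMSO, RAC1i and Combo, with summed levels of 3611, 1929 and 2128 CPM. None of 6 stromal, 6 immune and 4 endothelial markers reached 10 CPM in any library, and the summed level of each of these lists stayed between 1.24 and 9.15 CPM.

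The largest differences of the whole group lay in CLK1, CLK4, TRA2A and TRA2B, so sequence upstream of a RefSeq start of 3 of these genes is shown first. The RefSeq table on GRCh38.p14 held no window for TRA2A. Each line is the longest stretch without an annotated exon in the 250 bases before the RefSeq start, written 5′ to 3′ on the minus strand, which is the strand of all 3 genes. For CLK4 the annotations differ: GENCODE 44 also holds a start farther upstream, so the CLK4 stretch lies inside the gene as placed below. Capitals mark a GC box (GGGCGG, or CCGCCC when read from the other strand) or an E-box (CACGTG).
CLK1 (chr2:200864692-200864908): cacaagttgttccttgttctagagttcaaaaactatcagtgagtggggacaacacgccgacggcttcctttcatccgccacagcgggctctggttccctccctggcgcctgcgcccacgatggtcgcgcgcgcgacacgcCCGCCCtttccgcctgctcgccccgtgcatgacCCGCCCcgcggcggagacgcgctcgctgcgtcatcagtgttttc
CLK4 (chr5:178627113-178627300): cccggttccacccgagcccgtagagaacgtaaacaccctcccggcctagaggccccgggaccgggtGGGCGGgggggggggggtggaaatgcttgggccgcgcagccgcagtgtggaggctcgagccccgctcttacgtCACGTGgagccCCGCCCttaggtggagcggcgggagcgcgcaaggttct
TRA2B (chr3:185938104-185938264): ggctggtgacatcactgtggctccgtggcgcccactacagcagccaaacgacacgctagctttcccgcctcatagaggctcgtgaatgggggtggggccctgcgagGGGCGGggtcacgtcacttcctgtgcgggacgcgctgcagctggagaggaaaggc

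The CLK1 stretch held 2 GC boxes, the CLK4 stretch 2 GC boxes and 1 E-box, and the TRA2B stretch 1 GC box. Both strands of the whole 250-base windows were then searched for 8 motifs in 34 measured members and in 27305 promoters. Unlike the members, the 27305 were not limited to measured genes. The GC box stood in 22 of the 34 members (64.7%) and in 42.3% of all promoters. CCAAT stood in 16 (47.1%) against 33.0%, and CACGTG in 8 (23.5%) against 6.49%. The heat shock element TTCNNGAA was found in 1 member against 6.72% of promoters, and the ETS motif CCGGAAGT in 3 (8.82%) against 3.64%. TGACGTCA (CRE), ATGGCGGC (YY1) and the palindromic NRF1 motif stood in 0 members and in 1.77%, 1.34% and 1.13% of promoters. The E-box, the GC box, CCAAT and the ETS motif were thus in a larger share of these promoters than of all promoters. This describes letters and not bound sites. Of the 13 members with a window that were over 1.5-fold higher in RAC1i, 8 held the GC box and 5 held CCAAT. The E-box stood in 3 of them and the ETS motif in 0.

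Of the 44 members, 38 reached 10 CPM in at least 1 library and are called measured. They were 13 SR or TRA2 genes, 21 HNRNP genes and all 4 CLK genes. SRSF12 stayed at 1.40 to 1.97 CPM and HNRNPA1L2 at 0.553 to 0.663 CPM, and HNRNPCL1 to HNRNPCL4 had at most 2 UMIs each in any library. Differences are given as the log2 ratio of CPM + 1, or as a plain ratio of CPM with its interval. Across the 8778 genes measured in RAC1i or DMSO, the median log2 ratio of RAC1i over DMSO was −0.20. With Combo over DMSO it was −0.17, over 8745 genes.

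In RAC1i, 15 of the 38 measured members were over 1.5-fold higher than in DMSO, where 22.1% of all measured genes were. Another 4 were over 1.5-fold lower, where 36.0% of all genes were. As shares of the members these are 39.5% and 10.5%. Past 2-fold there were 10 higher and 1 lower, against 12.4% and 22.9% of all genes. The families differed. Of 13 SR or TRA2 genes, 7 (53.8%) were higher and 1 (7.69%) lower. Of 21 HNRNP genes, 5 (23.8%) were higher and 3 (14.3%) lower, so the share higher was near that of all genes. Of 4 CLK genes, 3 (75%) were higher and 0 lower. The median log2 ratio was 0.68 for SR and TRA2 genes, 0.16 for HNRNP genes and 1.71 for CLK genes. CLK3 and CLK4 were under 10 CPM in DMSO and counted as measured only through the treated libraries, where they were higher. HNRNPA1P48 was also under 10 CPM in DMSO and counted only through RAC1i, where it was higher, and it enters the HNRNP median.

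Combo gave nearly the same picture. It had 14 of 37 measured members over 1.5-fold higher than DMSO (20.7% of all genes) and 5 lower (34.6% of all genes). Past 2-fold there were 9 higher and 1 lower, against 11.2% and 21.2% of all genes. The medians were 0.57, 0.06 and 1.64 for the same 3 families. Both comparisons use the same DMSO library, so their likeness is not independent. Set directly against RAC1i, Combo had 0 of 38 members past 1.5-fold in either direction, where 0.121% of all genes were higher and 0.363% lower. Past 2-fold these shares were 0.0134% and 0.0134%, with 0 members. The members' log2 ratios of Combo over RAC1i ran from −0.29 for SRSF6 to 0.11 for HNRNPH3.

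**Figure D1:**
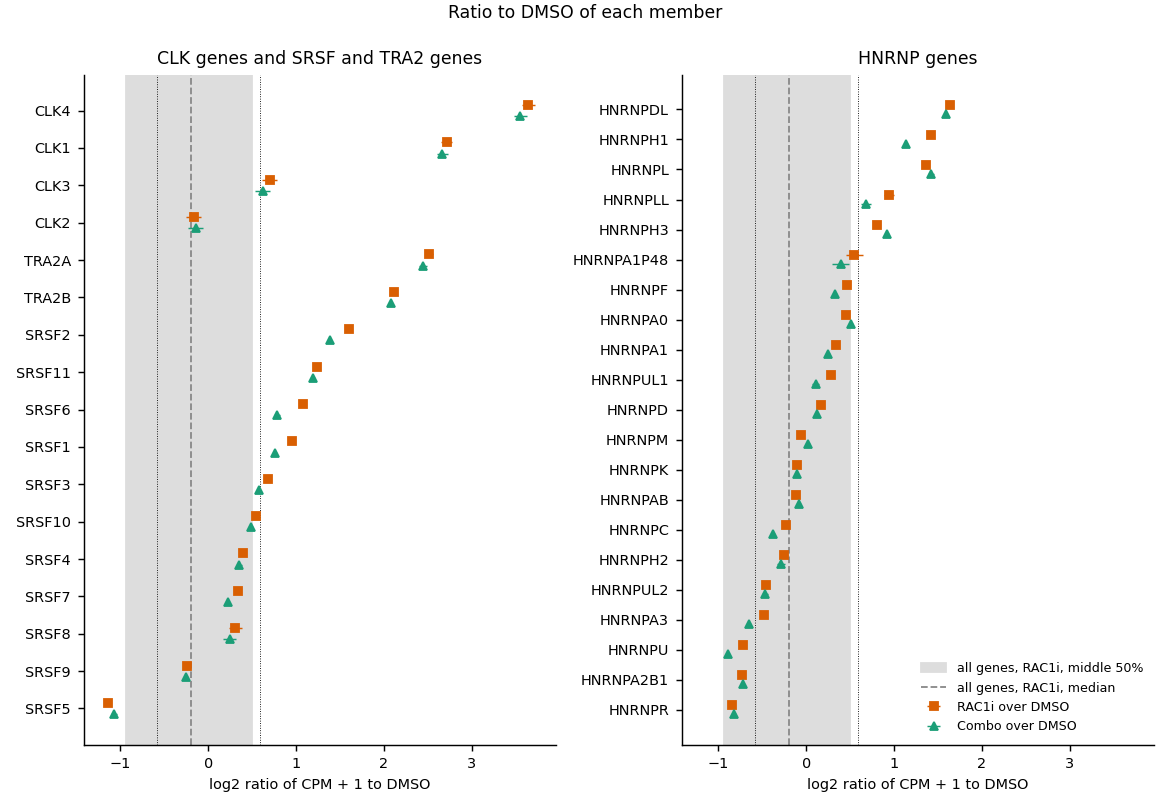
Log2 ratio of CPM + 1 over DMSO for each of the measured members, by family, in RAC1i and Combo, with counting intervals; the dotted lines mark 1.5-fold, and the grey band and dashed line give the middle 50% and the median of all genes in RAC1i. CLK4 (3.64 in RAC1i), CLK1, TRA2A and TRA2B lie farthest to the right and SRSF5 (−1.14 in RAC1i) farthest to the left, followed by HNRNPR in RAC1i (−0.85) and by HNRNPU in Combo (−0.89).

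The CLK kinases phosphorylate the serines of SR proteins in the nucleus and so release them from nuclear speckles. CLK4 (chr5:178602664-178630615, minus strand) had 8.11 CPM in the DMSO library (interval 7.72 to 8.52), against 113 CPM in RAC1i (111 to 114) and 106 CPM in Combo (104 to 107). The ratio of RAC1i over DMSO was 13.9 (13.2 to 14.6) and that of Combo over DMSO 13.02 (12.4 to 13.7). CLK1 (chr2:200853009-200864691, minus strand) had 12.996, 90.7 and 87.8 CPM, which gave ratios of 6.98 (6.70 to 7.27) and 6.75 (6.48 to 7.04). For both genes the treated libraries stood far above DMSO and close to each other.

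The other CLK genes differed less. CLK3 had 8.85, 15.0 and 14.1 CPM in DMSO, RAC1i and Combo, with ratios of 1.69 (1.60 to 1.79) and 1.60 (1.51 to 1.70). In the few cells called S by a cell cycle score, its log2 ratio was −0.21 in RAC1i and 0.27 in Combo. CLK2 had 11.3, 10.01 and 10.2 CPM, with a ratio of RAC1i over DMSO of 0.882 (0.833 to 0.935). The makeup of the CLK pool therefore shifted: CLK4 gave 19.6% of all CLK UMIs in DMSO, and 49.4% and 48.5% in RAC1i and Combo. CLK1 gave 31.5%, 39.7% and 40.3%. CLK2 gave 27.5%, 4.38% and 4.67%, and CLK3 gave 21.4%, 6.56% and 6.50%. These shares were smaller although the level of CLK2 hardly differed and that of CLK3 was higher, while CLK4 and CLK1 took more of the pool. In all, CLK RNA was 0.00413% of the UMIs in DMSO and 0.0229% and 0.0218% in the treated libraries, so it was a small pool in every library.

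TRA2A and TRA2B are relatives of the SR proteins that bind GAA-rich exonic enhancers. TRA2A (chr7:23504780-23532041, minus strand) had 24.5 CPM with DMSO, against 145 and 138 CPM in RAC1i and Combo. Its ratios over DMSO were 5.89 (5.72 to 6.07) and 5.61 (5.44 to 5.78). TRA2B (chr3:185914558-185938103, minus strand) had 103, 449 and 438 CPM, with ratios of 4.34 (4.28 to 4.41) and 4.24 (4.18 to 4.31). After CLK4 and CLK1, these were the largest ratios among all measured members in both comparisons.

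SRSF2, the speckle protein also known as SC35, had 276 CPM with DMSO, 838 CPM with RAC1i and 722 CPM with Combo. Its ratio of RAC1i over DMSO was 3.03 (3.01 to 3.06), and that of Combo over RAC1i was 0.861 (0.855 to 0.867). SRSF11, an SR-like protein that acts with the U2 auxiliary factor, had 141, 332 and 324 CPM, or a ratio of 2.36 (2.33 to 2.40) in RAC1i. Over all kept cells both genes were over 2-fold higher in each treated library. In the few cells called S by a cell cycle score, the log2 ratio of SRSF2 was 0.62 in RAC1i and 0.54 in Combo, the latter under 1.5-fold, and that of SRSF11 was 0.68 and 0.73.

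SRSF6, a regulator of alternative exons, had 58.4, 125 and 101 CPM in DMSO, RAC1i and Combo, a ratio of 2.13 (2.09 to 2.18) in RAC1i. It had the lowest ratio of Combo over RAC1i among the members, 0.814 (0.799 to 0.828). The log2 ratio of SRSF6 in Combo over DMSO was 0.79, but 0.071 in the few cells called S. SRSF1, the founding SR protein ASF/SF2, had 86.8, 168 and 148 CPM, with a ratio of 1.94 (1.91 to 1.98) in RAC1i. SRSF3, which also couples splicing to mRNA export, had 312, 500.3 and 464 CPM. Its ratio was 1.61 (1.59 to 1.62) in RAC1i and 1.49 in Combo, on either side of the 1.5-fold line.

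The remaining SRSF genes stayed within 1.5-fold, except for SRSF5. SRSF10, which represses splicing when it loses its phosphates, had 110.1, 161 and 155 CPM and a log2 ratio of 0.55 in RAC1i. SRSF4 had 92.7, 122 and 119 CPM, a log2 ratio of 0.39. The log2 ratios of SRSF7 and SRSF8 in RAC1i were 0.33 and 0.31, so these 4 were above DMSO but below the 1.5-fold line. SRSF10 in RAC1i was past that line under 4 of 12 other ways of processing. SRSF7, like SRSF3 an adaptor for mRNA export, had 260, 328 and 303 CPM. SRSF8, which has few UMIs, had 13.3, 16.7 and 15.9 CPM. SRSF9 had 418, 352 and 352 CPM, a log2 ratio of −0.25 that lay 0.05 below the median of all genes.

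SRSF5 (chr14:69726900-69772005, plus strand), a regulator of alternative exons, was the single SR gene over 1.5-fold lower. Its level was 90.6 CPM with DMSO, against 40.7 CPM with RAC1i and 42.5 CPM with Combo. This was 2.23-fold lower in RAC1i, a ratio of 0.449 (0.438 to 0.460), and 2.13-fold lower in Combo. Its direction was opposite to that of 11 of the 12 other measured SR and TRA2 genes, SRSF9 being the other gene below DMSO.

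**Figure D2:**
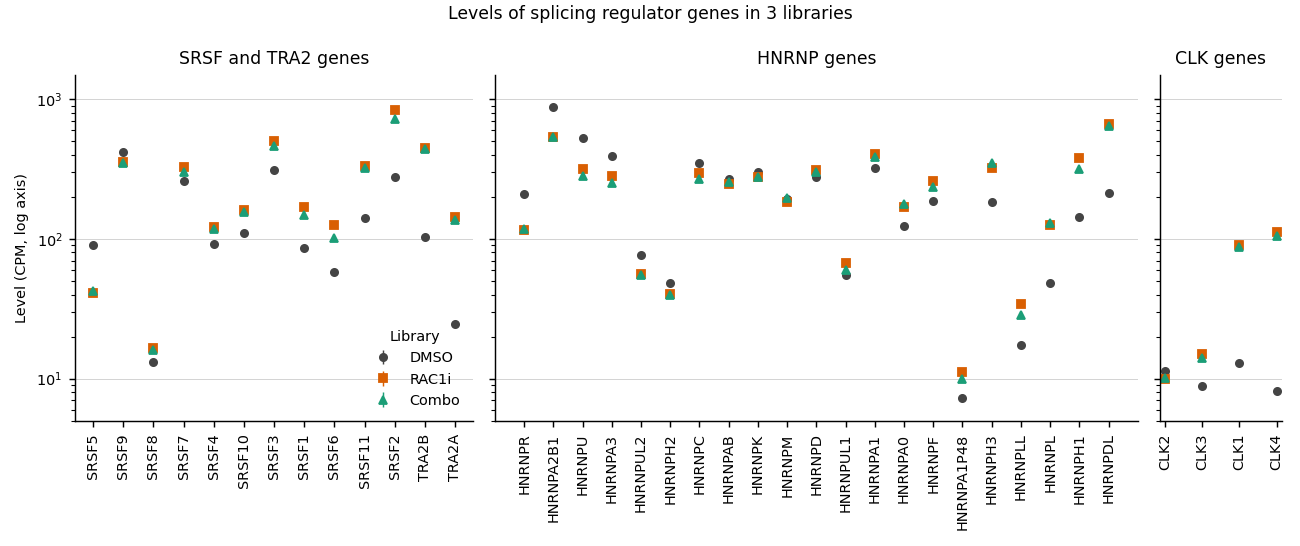
Level in CPM, on a log axis, of the measured members in DMSO, RAC1i and Combo, by family; each point is 1 library. RAC1i and Combo points nearly coincide for most genes, and the widest gaps to DMSO are those of CLK4 (8.11 against 113 and 106 CPM), CLK1 and TRA2A.

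As a pool, SR and TRA2 RNA was 0.199% of all UMIs in DMSO, against 0.358% and 0.332% in RAC1i and Combo. Each UMI marks a captured 3′ end, so these shares do not grow with gene length, although capture may differ between genes. Within the pool SRSF9 gave 21.03% of UMIs in DMSO and 9.84% and 10.6% in the treated libraries. SRSF2 went from 13.9% to 23.4% and 21.7%, and TRA2B from 5.20% to 12.5% and 13.2%. SRSF3 hardly changed its share, with 15.7%, 13.98% and 13.98%. The most abundant SR RNA was thus SRSF9 in DMSO and SRSF2 after either treatment.

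The hnRNP pool was nearly constant, at 0.482%, 0.511% and 0.491% of UMIs, while its members moved in both directions. The share over 1.5-fold higher in RAC1i (23.8%) was near the 22.1% of all genes, and 14.3% were lower against 36.0%. The 5 most abundant in DMSO were HNRNPA2B1, HNRNPU, HNRNPA3, HNRNPC and HNRNPA1. HNRNPA2B1, a core hnRNP that also takes part in RNA transport, had 886, 535 and 538 CPM and was 1.66-fold lower in RAC1i, a ratio of 0.604 (0.599 to 0.608). HNRNPU, the scaffold attachment factor that binds nuclear RNA and chromatin, had 524, 317 and 283 CPM and was 1.65-fold lower, a ratio of 0.606 (0.600 to 0.611). HNRNPA3 had 395, 283 and 252 CPM, which was 1.39-fold lower in RAC1i and 1.57-fold lower in Combo. The Combo difference of HNRNPA3 stayed past 1.5-fold under 6 of 12 other ways of processing, and that of HNRNPU in RAC1i under 9 of 12, with a log2 ratio of −0.435 by the mean over cells. HNRNPC, which binds uridine tracts, had 348, 296 and 268 CPM, with log2 ratios of −0.23 and −0.38. HNRNPA1 was the only one of the 5 above DMSO, with 322, 408 and 384 CPM and a log2 ratio of 0.34 in RAC1i.

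The 5 largest log2 ratios of the family belonged to HNRNPDL, HNRNPH1, HNRNPL, HNRNPLL and HNRNPH3. HNRNPDL (chr4:82422565-82430462, minus strand), a relative of HNRNPD, had 214, 665 and 644 CPM, a ratio of 3.11 (3.08 to 3.15) in RAC1i. Its neighbour HNRNPD lies 48.062 kb away and had 276, 309 and 299.6 CPM, a ratio of 1.12. HNRNPH1 (chr5:179614178-179634784, minus strand), which binds runs of G, had 142, 382 and 314 CPM, a ratio of 2.68 (2.64 to 2.72). These genes were high in both treated libraries, with HNRNPH1 lower in Combo than in RAC1i (ratio 0.822, interval 0.814 to 0.831).

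HNRNPL, which binds CA repeats, had 48.1, 126 and 130.2 CPM, a ratio of 2.61 (2.55 to 2.68) in RAC1i. Its relative HNRNPLL, known for the splicing of CD45 in lymphocytes, had 17.3, 34.2 and 28.3 CPM, a ratio of 1.98 (1.90 to 2.06). HNRNPH3 had 184, 322 and 349 CPM, a ratio of 1.75. The gene of HNRNPL overlaps another annotated gene on its strand, as do HNRNPA1 and SRSF9, so some of their UMIs may belong to the neighbour or have been dropped by the counting.

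At the other end stood HNRNPR, with 208, 115 and 118 CPM. It was 1.80-fold lower in RAC1i, a ratio of 0.554 (0.546 to 0.563). HNRNPUL2, a relative of HNRNPU, had 76.8, 55.7 and 55.2 CPM, a log2 ratio of −0.46 in RAC1i, against 0.14 in cells called S. With HNRNPA2B1, HNRNPU and HNRNPA3 these were the 5 smallest ratios of the family. The other measured HNRNP genes had log2 ratios between −0.25 for HNRNPH2 and 0.55 for HNRNPA1P48 in RAC1i. HNRNPA1P48 is a near copy of HNRNPA1, so its 7.32, 11.2 and 9.93 CPM and part of the HNRNPA1 count are uncertain.

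**Figure D3:**
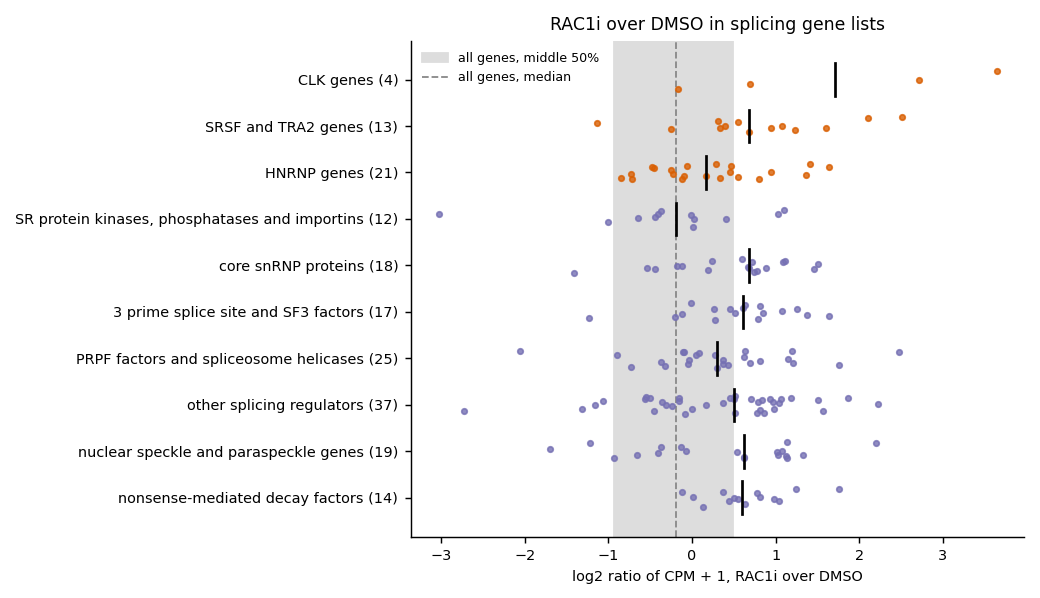
Log2 ratio of RAC1i over DMSO of the measured genes of each family and pathway list; each point is 1 gene, the bar is the median, and the grey band and dashed line give the middle 50% and the median of all genes. The CLK genes have the highest median (1.71), and the list of SR protein kinases, phosphatases and importins is the lowest (−0.19), near the median of all genes.

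The other genes of the pathway were taken as 7 lists, which were chosen with earlier results of these data known. Together, 64 of 142 measured genes (45.1%) were over 1.5-fold higher in RAC1i and 16 (11.3%) lower, where 22.1% and 36.0% of all genes were. Their median log2 ratio was 0.48. In Combo 58 (40.8%) were higher and 18 (12.7%) lower, where 20.7% and 34.6% of all genes were. The enzymes and carriers that act on SR proteins outside the CLK family were near the shares of all genes. Of 12 measured kinases, phosphatases and importins, 2 (16.7%) were higher and 3 (25%) lower in RAC1i, with a median of −0.19. SRPK1, the main cytoplasmic SR kinase, had 62.2, 30.5 and 32.7 CPM and was 2.04-fold lower in RAC1i. SRPK2 had 80.1, 50.9 and 55.7 CPM, a log2 ratio of −0.64. PRPF4B, a kinase of the spliceosome, had the largest ratio of the list (log2 1.11, from 48.1 to 105 CPM), and DYRK1B the smallest (log2 −3.03, from 46.5 to 4.83 CPM).

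The counts of the other lists are to be read against the same 22.1% and 36.0% of all genes. Of 18 core snRNP proteins 11 were higher in RAC1i and 1 lower, with SNRPE highest at log2 1.503 and SNRNP35 lowest at −1.41. For 17 genes of 3′ splice site recognition and the SF3 complex, 9 were higher and 1 lower, from CHERP at 1.64 to PUF60 at −1.24. Among 25 PRPF factors and helicases 9 were higher and 3 lower, from PRPF38B at 2.48 to PRPF6 at −2.06. The 37 other splicing regulators held 16 higher and 4 lower genes, from MBNL2 at 2.23 to TAF15 at −2.72. The speckle and paraspeckle list had 10 of 19 genes higher and 4 lower, from CCNL1 at 2.20 to the long noncoding RNA NEAT1 at −1.70. Of 14 factors of nonsense-mediated decay 7 were higher and 0 lower, from UPF3B at 1.76 to SMG6 at −0.11. Apart from the kinase list, each of these lists had a median between 0.30 and 0.68, against −0.20 for all genes.

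A pair of nuclear RNAs went the other way. MALAT1, the noncoding RNA of nuclear speckles, had 25028, 13061 and 16183 CPM in DMSO, RAC1i and Combo. NEAT1, the scaffold of paraspeckles, had 9741, 3004 and 2773 CPM. Mitochondrial RNA was 6.15%, 1.81% and 1.69% of UMIs in the same order. With mitochondrial genes left out of the total, the medians of the SR, HNRNP and CLK genes in RAC1i were 0.62, 0.10 and 1.65. In that setting 15 members were higher and 4 lower, where 19.9% of all genes were higher and 38.8% lower.

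The differences were also visible in single cells. To compare cells at 1 depth, each was thinned to 5000 UMIs, which left 6725, 9200 and 7354 cells and dropped 806, 1015 and 885 shallower ones. A UMI of CLK4 was found in 3.79% of DMSO cells (3.35 to 4.28), 41.2% of RAC1i cells (40.2 to 42.2) and 38.2% of Combo cells (37.1 to 39.3). For CLK1 the shares were 6.86% (6.26 to 7.49), 35.7% (34.7 to 36.7) and 34.3% (33.2 to 35.4). Without thinning they were 18.2%, 75.6% and 74.6% for CLK4 and 26.9%, 73.8% and 73.1% for CLK1. CLK2 gave 5.20%, 5.29% and 5.02% of thinned cells, and CLK3 gave 4.52%, 8.01% and 7.47%. All cells were of 1 cell line, so no cell type that lacks these genes was at hand to measure the share that free RNA gives.

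Cells without any CLK UMI at that depth were 81.2% of DMSO, 35.4% of RAC1i and 37.98% of Combo cells. The median cell held 10, 17 and 16 SR or TRA2 UMIs in DMSO, RAC1i and Combo. The 10th and 90th percentiles were 5 and 15, 10 and 28, and 9 and 26. For HNRNP genes the median was 24, 25 and 24. Cells with at least 5 UMIs of TRA2B were 0.03% of DMSO, 17.1% of RAC1i and 16.7% of Combo cells, and for SRSF2 they were 2.13%, 38.7% and 30.5%. Cells with no UMI of SRSF5 were 64.0%, 82.6% and 81.9% of the libraries.

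**Figure D4:**
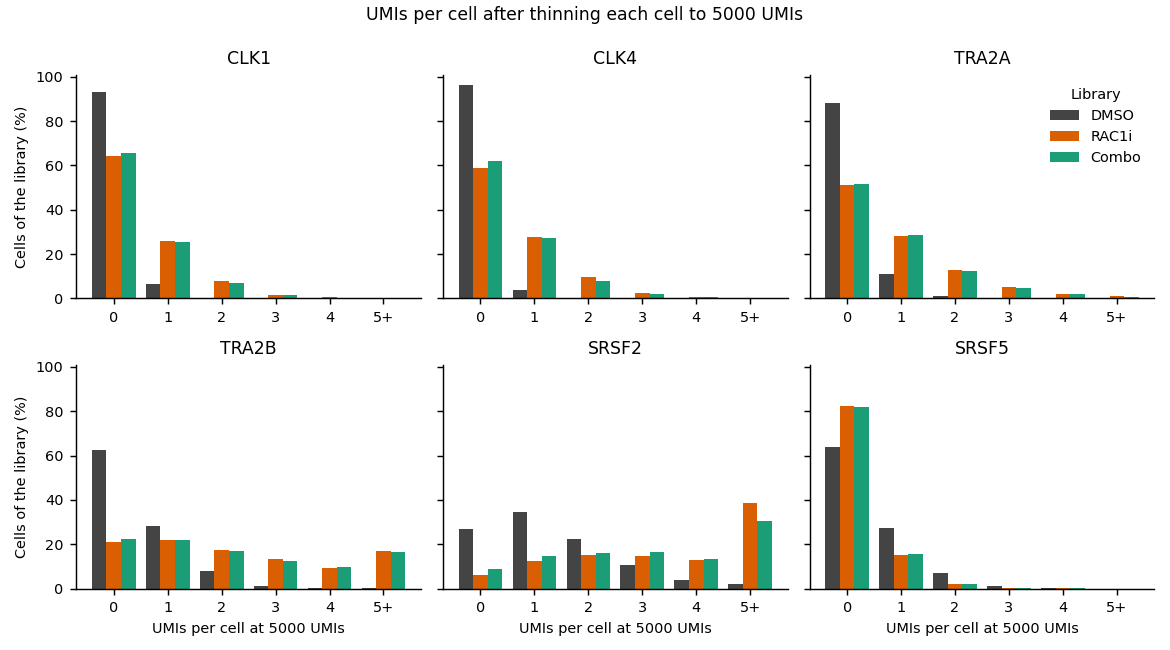
Share of cells, in percent, by the number of UMIs per cell after thinning to 5000 UMIs, for selected members in DMSO, RAC1i and Combo. The DMSO cells gather at low numbers for TRA2B and CLK4 (3.79% with a UMI of CLK4), and the treated cells spread to higher ones, while SRSF5 moves the other way.

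Spread between cells beyond counting was measured as the variance minus the mean, over the squared mean, which is 0 for pure counting error. For TRA2B it was 0.119, 0.487 and 0.508 in DMSO, RAC1i and Combo. SRSF2 gave 0.087, 0.274 and 0.283, and SRSF5 0.176, 0.539 and 0.692. HNRNPDL had no such increase, with 0.171, 0.118 and 0.146, although its level was about as much higher as that of SRSF2. Most members had a wider spread than in DMSO: of 31 with a mean of at least 0.1 UMIs per thinned cell in both libraries, 24 were above DMSO in RAC1i and 25 in Combo, and the median over these members was 0.129, 0.222 and 0.229 in DMSO, RAC1i and Combo. The spread of genes outside the group was not measured.

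Levels also ran with the depth of the cells. The cells of each library were split into 3 groups of equal size by UMIs per cell, with medians of 7338.5 to 8013 UMIs in the shallow and 37835 to 42330 in the deep group. TRA2A had 233, 169 and 114 CPM in the shallow, middle and deep group of RAC1i, and 222, 160 and 109.8 CPM in Combo. In DMSO it had 24.99, 24.8 and 24.3 CPM. TRA2B had 621, 496 and 390.1 CPM in RAC1i against 86.9, 99.3 and 109 CPM in DMSO. CLK1 had 126, 95.02 and 81.4 CPM in RAC1i and 13.7, 13.8 and 12.3 CPM in DMSO. These genes were highest in the shallow cells of the treated libraries. In DMSO, TRA2A and CLK1 were nearly level and TRA2B was lowest in shallow cells, and every depth group of a treated library stood above every depth group of DMSO.

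SRSF11 and SRSF9 ran in the opposite direction. SRSF11 had 220.4, 324 and 359 CPM in the shallow, middle and deep group of RAC1i and 147, 138 and 141 CPM in DMSO. SRSF9 had 236, 328 and 388 CPM in RAC1i and 446, 414 and 415 CPM in DMSO. SRSF2 was level, with 809.7, 856 and 834 CPM in RAC1i. SRSF9 thus lay farthest below DMSO in shallow cells, and SRSF11 lay closest to DMSO there. Of the 3 HNRNP genes over 1.5-fold lower in RAC1i, HNRNPU and HNRNPA2B1 lay closest to DMSO in shallow cells and HNRNPR farthest. HNRNPU had 507 CPM in DMSO against 437 in RAC1i in shallow cells, and 522 against 291 in deep cells. In the same order HNRNPA2B1 had 992 against 680 and 867 against 496 CPM. HNRNPR had 196 against 96.6 and 211 against 121 CPM. What sets the depth of a cell was not tested.

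**Figure D5:**
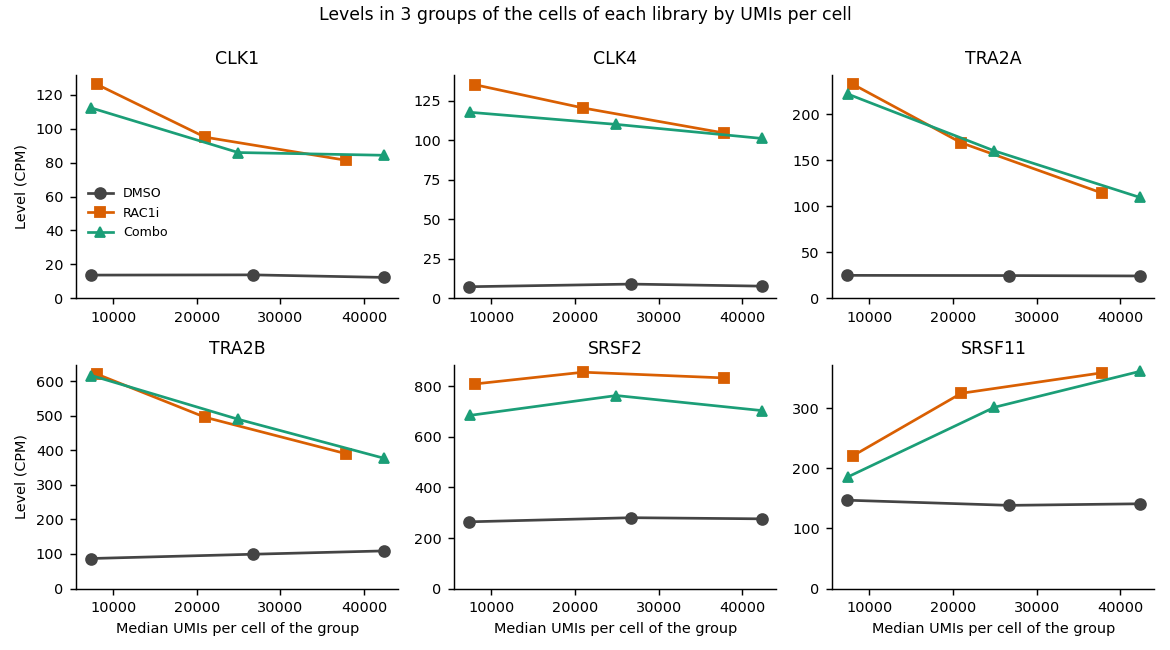
Level in CPM against the median UMIs per cell in 3 equal groups of the cells of each library by depth, for 6 members. TRA2A goes from 233 to 114 CPM from the shallow to the deep group of RAC1i, SRSF11 goes from 220.4 to 359 CPM, and TRA2B in DMSO goes the opposite way to the treated libraries, from 86.9 to 109 CPM.

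The annotation gave a feature shared by the SR genes that the rule did not use. In GENCODE 44, all 13 measured SR and TRA2 genes had a transcript marked as a target of nonsense-mediated decay, as did 14 of 21 HNRNP genes and 3 of 4 CLK genes. For the 38 members this was 30 (78.9%), against 4253 of 8486 measured coding genes (50.1%). A transcript with a retained intron was annotated for 29 members (76.3%) against 64.1% of coding genes. The members also had more annotated transcripts, a median of 13 against 9, and a gene with more transcripts has more chances to hold either class. Reads at the 3′ end do not tell these forms apart, so the levels above are sums over forms that make protein and forms that may not.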

How the data were processed

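The authors aligned 10x Genomics 3′ v3.1 libraries to GRCh38 (2020-A) with Cell Ranger 4.0.0, per the study's methods and the submitters' notes, and deposited raw UMI counts per gene and barcode for each library. Kept were cells above 1000 genes and a complexity of 0.8 that had no more than 20% of UMIs from mitochondrial genes, which are the limits the study states. Doublets were neither called nor removed here. Counts were summed over kept cells and divided by the library total (CPM). Genes with 10 CPM in the higher library were measured, and a difference past 1.5-fold was counted. With 1 library per condition there were no replicates and no test, and drug, culture and library cannot be told apart. Intervals (exact Poisson, conditional binomial for ratios, Clopper-Pearson for shares, 95%) cover counting error only.

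Thinning drew UMIs without replacement (seed 1). Cell cycle scores came from scanpy 1.11.5, run on each library separately. Alternatives used other cell limits, edgeR 4.0.16 and DESeq2 1.42.0 factors on the summed counts, other totals, thinning and score classes; the split by depth was added after seeing the data. Scripts ran in Python 3.11.15 and R 4.3.3. The ratios, their intervals and the counts past 1.5-fold were tested on simulated counts, and the other steps were not. Positions are from GENCODE 44 (GRCh38), in which 36366 of 36601 gene IDs and all 44 members were found, and promoters from RefSeq (GRCh38.p14), taking the first window listed for each gene. Named were all measured SRSF, TRA2 and CLK genes, the 5 most abundant HNRNP genes in DMSO and the 5 largest and 5 smallest RAC1i ratios, and the extremes of each pathway list with SRPK1, SRPK2, MALAT1 and NEAT1. The depth, single-cell and pool examples were chosen among members after their values were seen. The members, lists and motifs were chosen with earlier results of these data known.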

Additional observations from a re-analysis of the deposited data

How the results depend on the processing

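No paired analysis was possible because each condition had 1 library. Of 19 members past 1.5-fold in RAC1i, 15 stayed past it under all 12 alternatives and 18 kept their sign under all of them, and of 19 in Combo 10 and 19 did so. In RAC1i, HNRNPU stayed past it under 9, SRSF3 and HNRNPA2B1 under 10 and CLK3 under 11. In Combo, HNRNPA3 did under 6, CLK3 under 9, HNRNPU, HNRNPLL and HNRNPA2B1 under 10, and HNRNPR, SRSF1, SRSF2 and SRSF6 under 11. Some members within 1.5-fold went past it under alternatives. Most often these were HNRNPA1P48 (under 7) and SRSF10 (under 4) in RAC1i, and SRSF3 (under 5) and HNRNPA0 (under 4) in Combo. Cells called S gave the lowest log2 ratios for CLK4 (2.73 in RAC1i, 2.37 in Combo), CLK1 (1.95, 1.70), TRA2A (1.64, 1.72), TRA2B (1.06, 0.85) and SRSF2 (0.62, 0.54), and for SRSF6 in Combo (0.071), each over 1.5 times below the value over all kept cells. Among the members past 1.5-fold, the one sign change was CLK3 in cells called S. Its log2 ratio of RAC1i over DMSO there was −0.21, from 15 UMIs in RAC1i and 191 in DMSO, and the cause was not tested. Some members within 1.5-fold changed sign too, such as HNRNPUL2 in cells called S (0.14 in RAC1i, 0.097 in Combo). Only 129 RAC1i and 132 Combo cells were called S. Their medians were 11896 and 6769 UMIs, against 27120.5 in DMSO cells called S, so class and depth differed together. Each family median was set against a range, from the median of its genes' lower counting limits to the median of their upper ones. This is not an interval of the median itself. Counting intervals at this depth are narrow, so the SR and HNRNP medians over DMSO left their ranges under most alternatives. The CLK medians, and all medians of Combo over RAC1i, stayed within theirs under most. Less the median of all genes, the SR median of RAC1i over DMSO was 0.88 over all kept cells. It was 0.87 with TMM factors, 0.86 with DESeq2 size factors and 0.89 with a total without mitochondrial genes. Across all settings it ran from 0.55 in cells called S to 1.06 in cells called G1. The medians of the SR, HNRNP and CLK genes are given in that order.

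With no minimum CPM they were 0.61, 0.00 and 1.71 for RAC1i over DMSO, 0.53, 0.013 and 1.64 for Combo over DMSO and −0.061, −0.011 and −0.063 for Combo over RAC1i. With a mitochondrial limit of 10% they were 0.66, 0.14 and 1.72 for RAC1i over DMSO and 0.55, 0.049 and 1.65 for Combo over DMSO. With every deposited barcode they were 0.71, 0.17 and 1.72 for RAC1i over DMSO and 0.61, 0.074 and 1.66 for Combo over DMSO. With cells of 10000 to 40000 UMIs they were 0.71, 0.22 and 1.68 for RAC1i over DMSO, 0.63, 0.090 and 1.62 for Combo over DMSO and −0.080, −0.068 and −0.058 for Combo over RAC1i. With cells thinned to 5000 UMIs they were 0.64, 0.16 and 1.74 for RAC1i over DMSO, 0.50, 0.11 and 1.66 for Combo over DMSO and −0.098, −0.043 and −0.090 for Combo over RAC1i. With cells called G1 they were 0.88, 0.28 and 1.74 for RAC1i over DMSO, 0.70, 0.24 and 1.63 for Combo over DMSO and −0.18, −0.032 and −0.11 for Combo over RAC1i. With cells called S they were 0.50, 0.20 and 1.95 for RAC1i over DMSO, 0.43, 0.097 and 0.99 for Combo over DMSO and 0.017, −0.032 and −0.25 for Combo over RAC1i. The CLK medians 1.95 and −0.25 in cells called S are over 3 genes, since 1 was under 10 CPM in the libraries compared in RAC1i over DMSO (CLK3) and 1 in Combo over RAC1i (CLK2). Over all 4 CLK genes they were 0.87 and −0.30. With cells called G2/M they were 0.57, 0.025 and 1.69 for RAC1i over DMSO and 0.48, −0.018 and 1.64 for Combo over DMSO. With TMM factors they were 0.76, 0.24 and 1.78 for RAC1i over DMSO and 0.66, 0.19 and 1.73 for Combo over DMSO. With DESeq2 size factors they were 0.80, 0.28 and 1.81 for RAC1i over DMSO and 0.69, 0.22 and 1.75 for Combo over DMSO. With a total without mitochondrial genes they were 0.62, 0.099 and 1.65 for RAC1i over DMSO and 0.51, 0.040 and 1.58 for Combo over DMSO. With a total without mitochondrial and ribosomal protein genes they were 0.66, 0.15 and 1.71 for RAC1i over DMSO and 0.55, 0.082 and 1.64 for Combo over DMSO. With the mean over cells of CPM they were 0.60, 0.15 and 1.93 for RAC1i over DMSO, 0.53, 0.084 and 1.88 for Combo over DMSO and −0.088, −0.067 and −0.055 for Combo over RAC1i. The CLK median of Combo over RAC1i with cells of 10000 to 40000 UMIs is also over 3 genes. With the minimum of 10 CPM, the HNRNP medians over DMSO are over 20 or 21 genes, by setting.

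Past 2-fold, 10 members were higher (12.4% of all genes) and 1 lower (22.9%) in RAC1i, and 9 higher (11.2%) and 1 lower (21.2%) in Combo. Numbers past 1.5-fold also moved in some settings, with the share of all genes under the same setting in parentheses. A number counted as moved when it differed over 1.5 times from the one given above. Smaller changes also occurred: up to 19 members were higher in RAC1i, in cells called G1 (21.9%), and up to 17 in Combo, with DESeq2 size factors (24.9%). Those that moved follow. In RAC1i, 2 members were lower in cells called G1 (34.6%) and 2 in cells called S (23.4%). In Combo, 3 were lower in cells called G1 (30.8%), 9 higher (18.8%) and 2 lower (23.1%) in cells called S, and 3 lower with the mean over cells (33.1%). In cells called S, 2 members were lower in Combo than in RAC1i (4.70%), a share near that of all genes. Thinned to 2500 UMIs, cells with a UMI in DMSO, RAC1i and Combo were 3.13%, 21.96% and 20.9% for CLK1, 2.77%, 2.96% and 3.03% for CLK2, 2.18%, 4.62% and 4.08% for CLK3 and 2.07%, 25.5% and 22.9% for CLK4. Without thinning they were 26.9%, 73.8% and 73.1% for CLK1, 24.2%, 19.65% and 21.75% for CLK2, 19.9%, 27.55% and 28.7% for CLK3 and 18.2%, 75.6% and 74.6% for CLK4.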

Other observations

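Levels of the members were also read within cells called G1, S or G2/M by a score over 43 S phase and 54 G2/M genes. These classes are ranges of a score, not measured phases. Each library was scored separately, so the limits of the classes need not match between libraries. G2/M calls made up 54.8% of DMSO, 84.1% of RAC1i and 83.0% of Combo cells, and S calls 11.4%, 1.26% and 1.60%. Of the S calls, 51.4% in DMSO, 72.1% in RAC1i and 67.4% in Combo lay within 0.05 score units of the limit of their class. Of the G1 calls, 28.2% in DMSO, 70.0% in RAC1i and 67.1% in Combo did. The classes also differed in depth. In DMSO, RAC1i and Combo, the median UMIs were 25194, 12871 and 17251 in G1 calls and 27120.5, 11896 and 6769 in S calls. In G2/M calls they were 28717, 22588.5 and 26512.

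Within DMSO, several members were lower in cells called G1 than in the other classes, and examples follow. The share of all genes with this pattern was not measured. HNRNPAB had 189 CPM in G1, 307 in S and 307 in G2/M calls. SRSF10 had 82.8, 134 and 120.4 CPM, HNRNPDL 163, 229.6 and 238 CPM, and TRA2B 80.9, 127 and 111 CPM. CLK1 was nearly level, with 12.2, 12.7 and 13.5 CPM. Within RAC1i, TRA2B had 448, 267 and 451 CPM and CLK4 had 111, 55.1 and 114 CPM, so the class called S was the lowest for both, and each class stood above its DMSO counterpart. SRSF5 was lower than DMSO in each class, with 43.3, 41.3 and 40.4 CPM in RAC1i against 98.2, 83.0 and 87.9 CPM.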
